A study of Mus musculus with 8 samples.

Results

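Expression of *Zbtb24*, *Cdca7*, *Cdca7l* and *Hells* was measured by RNA-Seq in mouse embryonic stem cells (mESCs), the pluripotent cells grown from the early embryo. The 4 genes were taken by name, as genes mutated in the human immunodeficiency, centromeric instability and facial anomalies (ICF) syndrome together with *Cdca7l*, the paralog of *Cdca7*, and each was found once among the 43309 genes of the count table. All 4 had enough counts to be among the 16816 genes tested. The 8 libraries were made with the SMARTer Ultra Low kit, which copies polyadenylated RNA into cDNA and amplifies it by PCR. They formed 4 groups of 2, which combined a *Zbtb24* genotype with an input of 1000 cells (about 10 ng of RNA and 10 PCR cycles) or 100 cells (about 1 ng and 18 cycles), so cell number and PCR cycles changed together. The knockout (KO) was 1lox/1lox and the wild type (WT) was 2lox/+, so the WT libraries also carried an allele with loxP sites. All cells were of the J1 (129SV) strain and were grown in serum medium on gelatin without feeder cells. The series record describes the 2 replicates of a group as separate clones. Neither the clone behind each library nor the segment deleted in the KO allele was given in the sources used here. The paper describes more clones of each genotype than the 2 replicates of a group and took both inputs from the same clones. The 4 libraries of a genotype were thus not 4 independent clones, and the main fits did not pair the inputs. The p-values therefore measure only the spread between these labelled libraries.

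ICF syndrome is a recessive disease in which satellite DNA near the centromeres loses methylation and serum antibodies are low. The genes known to cause it are DNMT3B, ZBTB24, CDCA7 and HELLS. ZBTB24 is a transcription factor with a BTB domain and a row of zinc fingers, and it is known to bind the *Cdca7* promoter and to promote its transcription. HELLS is an ATPase of the SNF2 family that moves nucleosomes, and CDCA7 is a zinc finger protein that brings HELLS to chromatin and is needed for its remodelling activity, a step that helps DNA methyltransferases reach heterochromatin. CDCA7L has a zinc finger domain like that of CDCA7 and is known as a partner of MYC.

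The genomic positions of the 4 genes are on GRCm38/mm10, all on the plus strand and all protein-coding. *Zbtb24* (ENSMUSG00000019826.10) lies at chr10:41450383-41465574, and its longest coding transcript has 7 exons and 2844 bp. *Cdca7* (ENSMUSG00000055612.11) lies at chr2:72476159-72486893, with 9 exons and 2424 bp. *Cdca7l* (ENSMUSG00000021175.11) lies at chr12:117804289-117878706, with 10 exons and 2957 bp. *Hells* (ENSMUSG00000025001.7) lies at chr19:38930915-38971051, with 22 exons and 5868 bp. No stretch of 76 bases, the read length, in the transcripts of *Zbtb24*, *Cdca7* or *Hells* was shared with a transcript of another gene. For *Cdca7l*, 569 of 2882 such stretches (19.7%) were shared with *Dnah11*, a gene on the opposite strand whose exons overlap those of *Cdca7l* by 642 bp. Counting ignored the strand and dropped fragments in more than 1 gene, so part of the *Cdca7l* transcript could not be counted. *Dnah11* itself had 0 to 12 counts per library.

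The promoter of *Cdca7* is shown because ZBTB24 is known to act there. The sequence runs 5′ to 3′ on the plus strand (RefSeq, GRCm38.p6, chr2:72475969-72476158). It ends just before the GENCODE gene start, which lies upstream of the RefSeq start. Capitals mark the letters CAGGACCT, the core of the motif described for ZBTB24, and then GCGGGAAA, an E2F-type site (TTTCCCGC) read on the minus strand.
Cdca7: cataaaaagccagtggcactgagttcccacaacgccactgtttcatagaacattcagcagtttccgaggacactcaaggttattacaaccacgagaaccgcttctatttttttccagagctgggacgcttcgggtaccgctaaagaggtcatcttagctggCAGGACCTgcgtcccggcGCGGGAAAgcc
The CAGGACCT match lay at chr2:72476130-72476137, and its first base was 89 bases before the RefSeq start. Among 32851 promoter windows of 300 bases in RefSeq, 1.99% held these letters on either strand. The windows of *Zbtb24*, *Cdca7l* and *Hells* did not hold them. The *Cdca7l* window (chr12:117843611-117843910) lay inside the GENCODE gene, far from its start at chr12:117804289. All motif results for *Cdca7l* refer to this RefSeq window, and the GENCODE start was not searched.

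The E2F-type letters TTTCCCGC stood in 1.07% of all windows, and among the 4 genes in those of *Cdca7* and *Hells*. The E box CACGTG, the letters bound by MYC and related factors, stood in 7.15% of windows and among the 4 genes in that of *Zbtb24*. Both single sites are shown here within 30 bases of RefSeq sequence (chr19:38930917-38930946 and chr10:41450351-41450380), with the motif in capitals.
Hells: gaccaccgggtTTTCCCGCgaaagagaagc
Zbtb24: gggctccggggtCACGTGatgctacggccc
The *Hells* site began 62 bases before the RefSeq start, inside the first exon of the longer GENCODE gene, and the *Zbtb24* site began 5 bases after the RefSeq start. CCAAT was found in the windows of *Zbtb24* and *Cdca7l* and in 37.4% of all windows. TATAAA (13.6% of windows) and the second E2F-type form TTTGGCGC (0.514%) were found for none of the 4 genes. The motifs were chosen with these promoters in view, and a match of letters shows neither binding nor a cause.

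The libraries held 9666985 to 16686525 counts over genes. All 12 ES cell markers were detected in every library, with a summed level of 6365 to 7540 cpm (counts scaled to a common library total). The 12 markers of neurons and glia summed to 372.9 to 382.8 cpm in the KO libraries of 100 cells and to 40.1 to 48.0 cpm in the other 6 libraries, and the 8 fibroblast markers to 7.71 to 7.93 cpm against 2.95 to 4.91 cpm. *Aqp4* was at 0 in both groups of 1000 cells, and *Col3a1* and *Lum* were at 0 in every group except KO at 100 cells. The 8 primitive endoderm markers summed to 21.6 to 35.5 cpm with *Foxa2* at 0 throughout, and the 8 trophoblast markers to 59.6 to 95.8 cpm in WT and 74.7 to 105.6 cpm in KO libraries, with *Cdx2* at 0 in KO. The part of such cells or RNA in the values of the 4 genes was not tested.

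*Cdca7* showed the largest change of the 4 genes and was lower in the libraries labelled KO. In replicates 1 and 2 it had 2816 and 1958 counts in WT and 612 and 710 counts in KO at 1000 cells. It had 1663 and 2211 counts in WT and 800 and 858 counts in KO at 100 cells. On the cpm scale adjusted for library composition (trimmed mean of M values, TMM), the levels at 1000 cells were 163.0 and 160.2 cpm in WT (161.6 ± 1.96, mean ± SD, n = 2) and 47.6 and 49.2 cpm in KO (48.4 ± 1.13). All 4 WT libraries were high and all 4 KO libraries were low, with no overlap, though both inputs came from the same clones. At 100 cells the levels were 164.5 and 166.8 cpm in WT (165.6 ± 1.68) and 59.7 and 64.8 cpm in KO (62.3 ± 3.63). Of all genes tested, 28.0% had 4 KO and 4 WT libraries that did not overlap, and *Cdca7* and *Zbtb24* were among them. In bulk RNA, fewer cells that express a gene and less RNA per cell cannot be told apart.

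The log2 ratio of KO to WT for *Cdca7* was −1.74 at 1000 cells (SE 0.0737, 95% interval −1.89 to −1.59, adjusted p = 2.12e-17 from edgeR quasi-likelihood F tests adjusted by Benjamini-Hochberg over all genes tested). This is a level 3.34-fold lower in KO. Of 16816 genes, 541 (3.22%) had a lower log2 ratio. At 100 cells the log2 ratio was −1.46 (SE 0.107, 95% interval −1.70 to −1.21, edgeR adjusted p = 4.42e-05), a level 2.74-fold lower, and 1153 genes (6.86%) had a lower ratio. A gene was called when its adjusted p was at most 0.05. Called genes made up 41.5% of those tested at 1000 cells (20.9% higher and 20.6% lower in KO) and 34.2% at 100 cells (17.6% higher and 16.6% lower), so a call alone did not set a gene apart. The median absolute log2 ratio over all genes was 0.38 at 1000 cells and 0.47 at 100 cells, and both ratios of *Cdca7* were larger in size.

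*Zbtb24*, the targeted gene, was higher in the libraries labelled KO. It had 244 and 201 counts in WT and 526 and 545 in KO at 1000 cells, which are levels of 14.1 and 16.4 cpm against 40.9 and 37.7 cpm. At 100 cells it had 197 and 269 counts in WT and 532 and 494 in KO, or 19.5 and 20.3 cpm against 39.7 and 37.3 cpm. The 4 libraries labelled KO were thus all above the 4 labelled WT, so the counts of the targeted gene did not mark the knockout. Since reads from all exons were added up, a missing segment would not be seen in these values, and the labels are used as given. The log2 ratio of KO to WT was 1.37 at 1000 cells (95% interval 1.14 to 1.60, edgeR adjusted p = 4.33e-11) and 0.91 at 100 cells (95% interval 0.61 to 1.20, edgeR adjusted p = 0.00111). A higher ratio was found for 619 genes (3.68%) at 1000 cells and for 2477 genes (14.7%) at 100 cells.

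**Figure D1:**
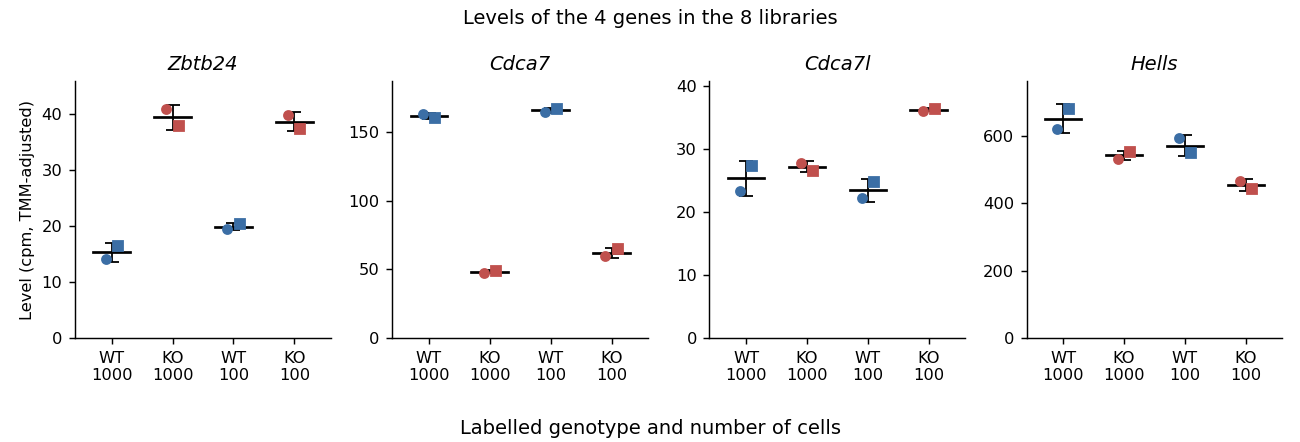
Levels of *Zbtb24*, *Cdca7*, *Cdca7l* and *Hells* in cpm (vertical axis, from 0, TMM-adjusted) in each library, by labelled genotype and number of cells (horizontal axis). Circles are replicate 1 and squares replicate 2, blue is WT and red is KO, and lines with bars give the mean ± SD of 2 libraries. *Cdca7* lay between 160.2 and 166.8 cpm in WT and between 47.6 and 64.8 cpm in KO libraries, and *Zbtb24* separated the genotypes in the other direction.

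*Hells*, the remodelling ATPase, had the highest level per transcript length of the 4 genes and was lower in the libraries labelled KO. It had 10738 and 8321 counts in WT and 6854 and 7967 in KO at 1000 cells, or 621.5 and 680.9 cpm against 532.6 and 551.5 cpm. It had 5994 and 7281 counts in WT and 6250 and 5845 in KO at 100 cells, or 592.7 and 549.4 cpm against 466.4 and 441.7 cpm. Over all 8 libraries the genotypes were not apart, since the WT libraries of 100 cells overlapped the KO libraries of 1000 cells. The log2 ratio of KO to WT was −0.26 at 1000 cells (95% interval −0.38 to −0.15, edgeR adjusted p = 0.000482) and −0.38 at 100 cells (95% interval −0.62 to −0.13, edgeR adjusted p = 0.0237). Both sizes lay under the median absolute log2 ratio over all genes. That median includes genes with few counts, and 1 for genes at a level like that of *Hells* was not computed. The call at 100 cells was lost with every gene of at least 1 count in the fit (adjusted p = 0.0543) and with either KO library of 100 cells left out (adjusted p = 0.317 without replicate 1 and 0.427 without replicate 2 by edgeR), where the single KO library is assumed to vary like the WT pair.

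*Cdca7l* did not pass the test at 1000 cells. Its levels there were 23.4 and 27.2 cpm in WT (404 and 333 counts) and 27.8 and 26.5 cpm in KO (358 and 383 counts), and the genotypes overlapped. The log2 ratio was 0.11 (95% interval −0.11 to 0.33, edgeR adjusted p = 0.452), an interval that holds neither a rise nor a fall of the size seen for *Cdca7*. At 100 cells the levels were 22.2 and 24.7 cpm in WT (224 and 328 counts) and 36.0 and 36.3 cpm in KO (483 and 481 counts). The 2 KO libraries of 100 cells were above all other libraries. The log2 ratio at 100 cells was 0.58 (95% interval 0.28 to 0.88, edgeR adjusted p = 0.00909). These are the libraries with the high summed level of neuronal and glial markers given above, and the part of that RNA in the *Cdca7l* value was not tested. The call was lost without KO replicate 1 (edgeR adjusted p = 0.142) or KO replicate 2 (0.162).

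**Figure D2:**
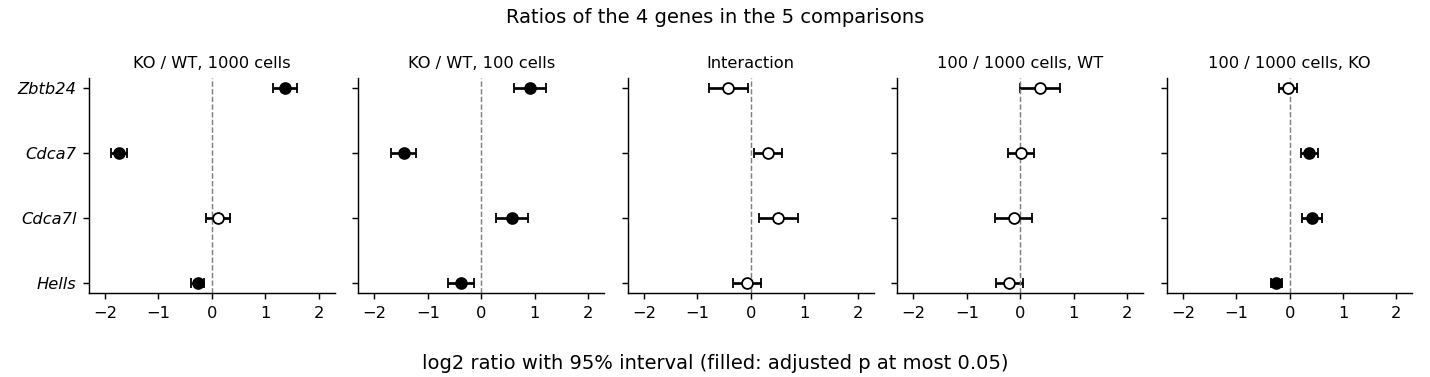
Log2 ratios (horizontal axis) of the 4 genes (rows) in the 5 comparisons, with 95% intervals from the edgeR fit. Filled points have an adjusted p of at most 0.05 over all genes tested. *Cdca7* lay at −1.74 and −1.46 and *Zbtb24* at 1.37 and 0.91 in KO over WT, and none of the 4 genes had a filled point for the interaction.

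The interaction of genotype and input asked whether the KO to WT ratio differed between 100 and 1000 cells. It was past the threshold for 16.3% of genes tested and for 0 of the 4 genes in the edgeR quasi-likelihood fit and by DESeq2 or limma-voom. The difference of log2 ratios was 0.33 for *Cdca7* (95% interval 0.06 to 0.59, edgeR adjusted p = 0.0832) and 0.52 for *Cdca7l* (95% interval 0.15 to 0.88, edgeR adjusted p = 0.0518). It was −0.42 for *Zbtb24* (95% interval −0.78 to −0.05, edgeR adjusted p = 0.109) and −0.07 for *Hells* (95% interval −0.33 to 0.20, edgeR adjusted p = 0.755). The unadjusted p was under 0.05 for *Zbtb24* (0.0286), *Cdca7* (0.0185) and *Cdca7l* (0.00870). With genes of at least 10 counts in every library, *Cdca7* (adjusted p = 0.0485) and *Cdca7l* (0.0410) passed. Without WT replicate 1 at 100 cells, *Zbtb24* (0.0395), *Cdca7* (0.0249) and *Cdca7l* (0.0359) passed by edgeR. Without WT replicate 2 at 100 cells, *Cdca7* (0.0154) and *Cdca7l* (0.00543) passed.

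The effect of input was examined within each genotype. The WT replicates of 100 cells, which also enter the KO to WT comparison at 100 cells and the interaction, were further apart than the other pairs, with a chi-square per gene of 17.6 against 1.99 to 3.28. In WT, 0.827% of genes tested were called between 100 and 1000 cells by the edgeR quasi-likelihood test, and 0 of the 4 genes. DESeq2, limma-voom and the edgeR exact test also called 0 of the 4. The unadjusted p was under 0.05 for 0 of the 4 by the quasi-likelihood test and for 1 by limma-voom. The log2 ratios of 100 to 1000 cells in WT were 0.37 for *Zbtb24* (edgeR adjusted p = 0.410), 0.02 for *Cdca7* (0.972), −0.12 for *Cdca7l* (0.824) and −0.20 for *Hells* (0.540). In KO, 52.1% of genes were called, and so were 3 of the 4 genes. There, *Cdca7* (log2 ratio 0.37, edgeR adjusted p = 0.000129) and *Cdca7l* (0.42, adjusted p = 0.000194) were higher and *Hells* (−0.25, adjusted p = 7.25e-05) was lower with 100 cells. *Zbtb24* had a log2 ratio of −0.02 in KO (adjusted p = 0.829). The KO libraries of 100 cells in this comparison are those in which the neuronal and glial markers were high, and their part in it was not tested.

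To compare levels between genes, cpm values were divided by the length of the longest coding transcript. In WT, the order was *Hells*, *Cdca7*, *Cdca7l* and *Zbtb24*, at 111.0, 66.7, 8.56 and 5.37 cpm per kb with 1000 cells and 97.3, 68.3, 7.93 and 6.99 cpm per kb with 100 cells. In KO, *Zbtb24* stood above *Cdca7l*, with *Hells*, *Cdca7*, *Zbtb24* and *Cdca7l* at 92.4, 19.9, 13.8 and 9.19 cpm per kb with 1000 cells and 77.4, 25.7, 13.5 and 12.2 cpm per kb with 100 cells. *Cdca7l* and *Zbtb24* had the smallest difference in cpm per kb of any neighbours in every group, and in WT at 100 cells their SDs were 0.621 and 0.203 cpm per kb. Their order in KO depended on the length used. With the joint length of all annotated exons, a choice made after the data were seen, *Zbtb24* had 7.67 and 7.52 cpm per kb in KO at 1000 and 100 cells and *Cdca7l* had 8.34 and 11.1 cpm per kb. The kit favours the 3′ end of transcripts, so levels per length are approximate.

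The balance within the paralog pair changed with the genotype label. *Cdca7l* made up 10.5% and 12.2% of the summed *Cdca7* and *Cdca7l* level per kb in WT at 1000 cells and 9.94% and 10.8% in WT at 100 cells. In KO its share was 32.4% and 30.7% at 1000 cells and 33.1% and 31.5% at 100 cells. Every KO library thus had a share above every WT library. The level of *Cdca7* per kb was 7.84 ± 0.941 times that of *Cdca7l* in WT at 1000 cells (SD, n = 2) and 2.17 ± 0.124 times in KO, and 9.06 and 8.22 times in the 2 WT libraries and 2.02 and 2.18 times in the 2 KO libraries at 100 cells. The summed level of the pair was 75.2 ± 0.113 cpm per kb in WT and 29.1 ± 0.154 in KO at 1000 cells, and 76.3 ± 1.31 and 37.9 ± 1.57 cpm per kb at 100 cells. These values follow from the single genes above and were not tested again. As 19.7% of the *Cdca7l* stretches were shared with *Dnah11* and part of its transcript could not be counted, its share may be understated. The values also depend on the length used. With the joint length of all annotated exons, *Cdca7* had 50.5 cpm per kb in WT and 15.1 in KO at 1000 cells. *Cdca7l* then had 7.77 and 8.34 cpm per kb.

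**Figure D3:**
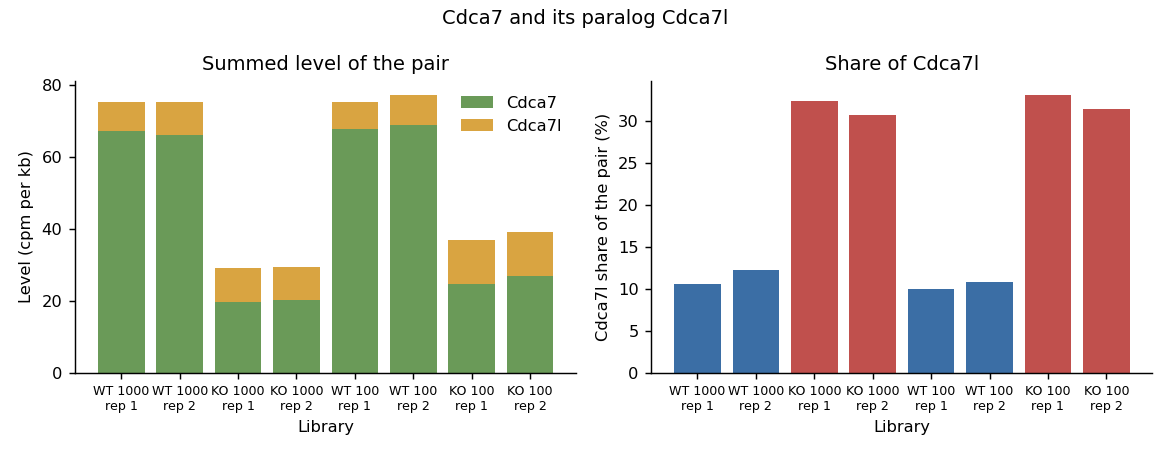
Left, level of *Cdca7* (green) and *Cdca7l* (yellow) stacked in cpm per kb of transcript (vertical axis, from 0) in each library. Right, share of *Cdca7l* in the sum of both in percent, with WT in blue and KO in red. The share was 9.94% to 12.2% in the WT libraries and 30.7% to 33.1% in the KO libraries.

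*Hells* and *Cdca7*, whose proteins form a complex, were also set side by side. *Hells* per kb stood at 1.58 and 1.76 times *Cdca7* in WT and at 4.63 and 4.64 times in KO at 1000 cells. At 100 cells the ratio was 1.49 and 1.36 in WT and 3.23 and 2.81 in KO. All 4 KO libraries had a higher ratio than all 4 WT libraries. The higher ratio follows from the single genes above, as *Cdca7* fell by more than *Hells*, and was not tested again. It concerns RNA and not the protein complex.

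The genes around each of the 4 were examined for position, taking the 3 tested genes nearest on either side. Many were not adjacent. Their starts lay 25.9 to 567 kb from that of *Zbtb24* and 191 to 617 kb from that of *Cdca7*. For *Cdca7l* the distances were 73.7 to 1319 kb and for *Hells* 76.1 to 1290 kb. Of the 6 neighbours of *Cdca7*, 0 were called at 1000 cells in the edgeR quasi-likelihood fit or by DESeq2, limma-voom or the edgeR exact test. The unadjusted p was under 0.05 for 0 of them in the quasi-likelihood fit and for 1 by limma-voom. At 100 cells *Rapgef4* (log2 ratio 3.69, edgeR adjusted p = 0.000706) and *Sp3* (0.35, adjusted p = 0.0406) were higher. *Rapgef4* had −0.97 at 1000 cells (adjusted p = 0.224), and its call at 100 cells comes from the KO libraries with high neuronal and glial markers, whose part in it was not tested. Around *Zbtb24*, 3 of 6 neighbours were higher and 1 lower at 1000 cells and 2 were higher at 100 cells. Over all genes tested, 41.5% were called at 1000 cells and 34.2% at 100 cells, the share to read beside each neighbour count here. Those with a mean of at least 10 cpm were *Wasf1* (−0.14 and 0.17 at 1000 and 100 cells), *Fig4* (0.42 and 0.17) and *Smpd2* (0.39 and 0.38), of which *Fig4* (adjusted p = 0.000211) and *Smpd2* (adjusted p = 0.0140) passed at 1000 cells. The other called neighbours had a mean under 10 cpm. *Ppil6* was higher at both inputs (log2 ratio 2.25 and 2.03, adjusted p = 0.00551 and 0.0140), *Ak9* was lower at 1000 cells (−1.56, adjusted p = 0.0308) and *Mical1* was higher at 100 cells (0.88, adjusted p = 0.0131). The log2 ratios of *Zbtb24* stood below those of *Ppil6* and above those of the other 5 neighbours at both inputs. Among the 6 neighbours of *Cdca7l*, 1 was higher and 1 lower at 1000 cells, and 2 were higher at 100 cells. All of these called neighbours had a mean under 10 cpm. At 100 cells, *Ptprn2* (log2 ratio 4.66) and *Gm10421* (6.30) were called with the KO libraries of high neuronal and glial markers, whose part was not tested. For *Hells*, 1 was higher and 1 lower at 1000 cells, and 2 were higher and 1 lower at 100 cells. Of these called neighbours of *Hells*, only *Noc3l* (76.5 cpm) reached a mean of 10 cpm. Over genes whose mean reached 10 cpm, the median log2 ratios of chromosomes 10, 2, 12 and 19 were between −0.03 and 0.07 at 1000 cells and between −0.05 and 0.01 at 100 cells, against 0.02 and −0.04 for all chromosomes.

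The remaining ICF gene, *Dnmt3b*, was read with 20 genes of DNA methylation and its readers. *Dnmt3b*, a de novo DNA methyltransferase, fell from 193.4 to 43.0 cpm at 1000 cells (log2 ratio −2.17, edgeR adjusted p = 6.05e-19) and from 212.9 to 86.9 cpm at 100 cells (−1.34, adjusted p = 4.78e-05). *Dnmt3l*, its cofactor without catalytic activity, fell by 1.41 and by 1.35 on the log2 scale (adjusted p = 5.56e-16 and 4.78e-05). *Mbd4*, a DNA glycosylase that binds methylated DNA, rose at 1000 cells (0.49, adjusted p = 4.86e-05) and had 0.34 at 100 cells (adjusted p = 0.122). *Zbtb38*, a reader of methylated DNA, had 0.12 and 0.38 and passed at neither input. Of the 20 genes, 1 was higher and 7 were lower at 1000 cells and 3 were higher and 3 lower at 100 cells. Over all genes tested, 20.9% were called higher and 20.6% lower at 1000 cells, and 17.6% and 16.6% at 100 cells. The list median was −0.14 at 1000 cells and −0.01 at 100 cells, beside −0.00 over all genes at both inputs. The 6 calls at 100 cells were 4 and 3 without KO replicate 1 or 2 and 10 and 11 without WT replicate 1 or 2. All list counts at 100 cells use the KO libraries with high neuronal and glial markers, whose part in them was not tested. At 1000 cells *Cdca7* and *Dnmt3b* thus both fell by more than 1 on the log2 scale, whereas *Hells* fell by 0.26. A fall of this size was not particular to ICF genes, since *Dnmt3a* (−1.01), *Dnmt3l* (−1.41) and *Mbd3* (−1.10) in the list also had it there.

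*Hells* was read beside 30 other ATPases of the SNF2 family. Of these, 4 were higher and 10 lower at 1000 cells, and 8 were higher and 7 lower at 100 cells. The list medians were −0.08 and 0.05. The shares called over all genes were 20.9% higher and 20.6% lower at 1000 cells, and 17.6% and 16.6% at 100 cells. The 15 calls at 100 cells were 3 without either KO library and 23 without WT replicate 2. *Atrx*, the ATPase that deposits histone H3.3 with DAXX, fell by 0.72 and by 0.58 (adjusted p = 2.92e-10 and 0.00263), and *Chd7* fell by 0.78 and by 0.42 (adjusted p = 1.74e-08 and 0.0440). *Smarcal1*, which rewinds DNA at stalled forks, rose by 0.85 and 0.57 (adjusted p = 4.45e-07 and 0.0114), and *Zranb3* rose at 1000 cells (0.35, adjusted p = 0.00485) and had 0.19 at 100 cells (adjusted p = 0.292). Both ratios of *Hells* were smaller in size than those of *Atrx* at the same input.

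*Zbtb24* was read beside 39 other ZBTB genes, of which 36 were tested. Of these, 4 were higher and 8 lower at 1000 cells, and 10 were higher and 6 lower at 100 cells. The list medians were 0.11 and −0.21. Among all genes tested, 20.9% were called higher and 20.6% lower at 1000 cells, and 17.6% and 16.6% at 100 cells. DESeq2 called 8 of the ZBTB genes at 100 cells. The 16 calls at 100 cells were 7 and 3 without KO replicate 1 or 2 and 25 without WT replicate 2. *Zbtb18*, a repressor with the same domain plan, rose from 6.51 to 16.9 cpm at 1000 cells (log2 ratio 1.37, adjusted p = 1.25e-08) and had 0.82 at 100 cells (adjusted p = 0.0129), and *Zbtb44* had 0.51 and 0.34 (adjusted p = 5.82e-06 and 0.0476). *Zbtb8a* (−1.01 and −0.99, adjusted p = 1.38e-08 and 0.000925) and *Zbtb45* (−0.80 and −0.73, adjusted p = 4.59e-05 and 0.00867) were lower. *Zbtb33*, *Zbtb4* and *Zbtb38* stand in both this list and that of DNA methylation.

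*Cdca7* shares a name, from an association with the cell division cycle, with 5 genes of other protein families. Of these, 1 was higher and 2 were lower at 1000 cells, and 1 was lower at 100 cells, with medians of −0.06 and −0.09. The shares called over all genes were 20.9% higher and 20.6% lower at 1000 cells, and 17.6% and 16.6% at 100 cells. The single call at 100 cells was lost without either KO library, and there were 2 and 3 calls without WT replicate 1 or 2. *Cdca5*, which encodes sororin, the protector of sister chromatid cohesion, was lower at both inputs (−0.48 and −0.46, adjusted p = 1.02e-05 and 0.00974). *Cdca4* had −0.21 (adjusted p = 0.0429) and −0.01 (0.955), *Cdca3* 0.24 (0.00218) and −0.18 (0.192), and *Cdca2* 0.02 (0.805) and 0.24 (0.120). The log2 ratios of *Cdca7* were below those of all 5 genes at both inputs.

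MYC and the E2F factors are known regulators of *Cdca7*, and their genes and partners formed a list of 23. *Myc* fell from 44.7 to 15.5 cpm at 1000 cells (log2 ratio −1.53, edgeR adjusted p = 1.22e-12) and from 46.5 to 14.1 cpm at 100 cells (−1.76, adjusted p = 5.02e-05). *Tfdp1*, the dimer partner of the E2F proteins, fell by 1.21 and by 0.56 (adjusted p = 6.46e-15 and 0.00353). *Rb1* (0.57 and 1.44, adjusted p = 0.00232 and 0.000645) and *Rbl1* (0.35 and 0.68, adjusted p = 0.00775 and 0.00589), which restrain E2F proteins, rose. In the list, 6 genes were higher and 5 lower at 1000 cells and 4 were higher and 6 lower at 100 cells. The list medians were 0.03 and −0.09. Over all genes tested, 20.9% were called higher and 20.6% lower at 1000 cells, and 17.6% and 16.6% at 100 cells. At 1000 cells DESeq2 called 4 genes of the list, and 1 fit of all 8 libraries called 7. The 11 calls at 1000 cells were 6 without WT replicate 1 or without KO replicate 2, and the 10 at 100 cells were 3 without either KO library. A list of 25 genes covered S phase, a phase in which *Hells* and *Cdca7* are known to be expressed. Of these, 7 were higher and 6 lower at 1000 cells and 6 were higher and 6 lower at 100 cells. The medians were −0.01 and 0.01, and the shares over all genes are those just given. At 1000 cells, 1 fit of all 8 libraries called 8 of the S phase genes. The 12 calls at 100 cells were 2 and 1 without KO replicate 1 or 2. The helicase genes *Mcm6* (0.85 and 1.07, adjusted p = 5.12e-13 and 0.000244) and *Mcm3* (0.64 and 0.62, adjusted p = 3.21e-10 and 0.00239) rose. *Dut* (−0.67 and −0.65, adjusted p = 7.49e-10 and 0.00447) and *Rpa2* (−0.22 and −0.46, adjusted p = 0.00802 and 0.00964) fell.

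**Figure D4:**
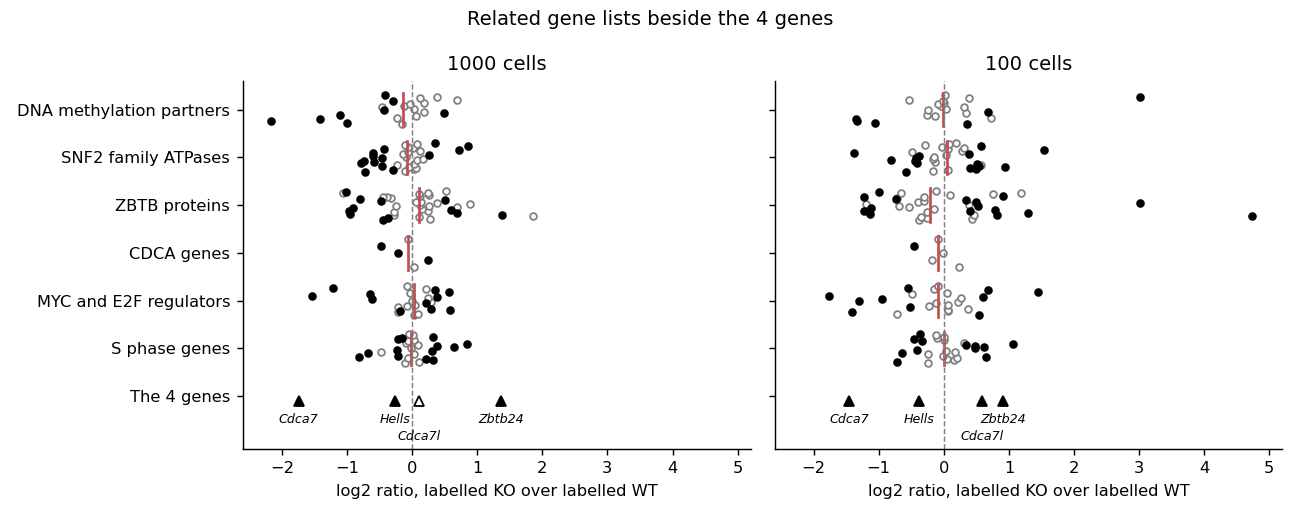
Log2 ratios of labelled KO over labelled WT (horizontal axis) for each tested gene of 6 lists (rows) and for the 4 genes (triangles), at 1000 cells (left) and 100 cells (right). Filled symbols have an adjusted p of at most 0.05, and red lines are list medians. *Cdca7*, at −1.74 and −1.46, lay outside most genes of every list, while the medians stayed between −0.21 and 0.11.

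The genes with the pattern nearest to each of the 4 were taken from 8368 genes whose mean reached 10 cpm, as those with the smallest root mean square (RMS) difference of centred log2(cpm + 1) over the 8 libraries. The nearest to *Cdca7* were *Bmp4* (RMS difference 0.128, Pearson r 0.987), *Id3* (0.141, r 0.984) and *Trh* (0.146, r 0.988). *Bmp4* encodes a secreted signal and *Id3* a helix-loop-helix inhibitor known to respond to such signals. For *Zbtb24* they were *Plekhb2* (0.0836, r 0.990), *Ift43* (0.0902, r 0.991) and *Dap* (0.0982, r 0.985). For *Hells* they were *D10Wsu102e* (0.0410, r 0.989), *Arrdc3* (0.0429, r 0.989) and *Plekha1* (0.0458, r 0.982). For *Cdca7l* they were *Smap2* (0.0444, r 0.983), *Zfp512* (0.0531, r 0.976) and *Gpatch1* (0.0666, r 0.961), which like *Cdca7l* had their highest levels in the KO libraries of 100 cells. The coefficients are descriptions over 8 libraries that share genotype and input. The nearest genes depended on the measure, since the 3 with the highest Pearson r shared 2 genes with those named for *Zbtb24*, 1 for *Cdca7l*, and 0 for *Cdca7* and *Hells*. None of the 4 genes was among the nearest 3 of another.

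**Figure D5:**
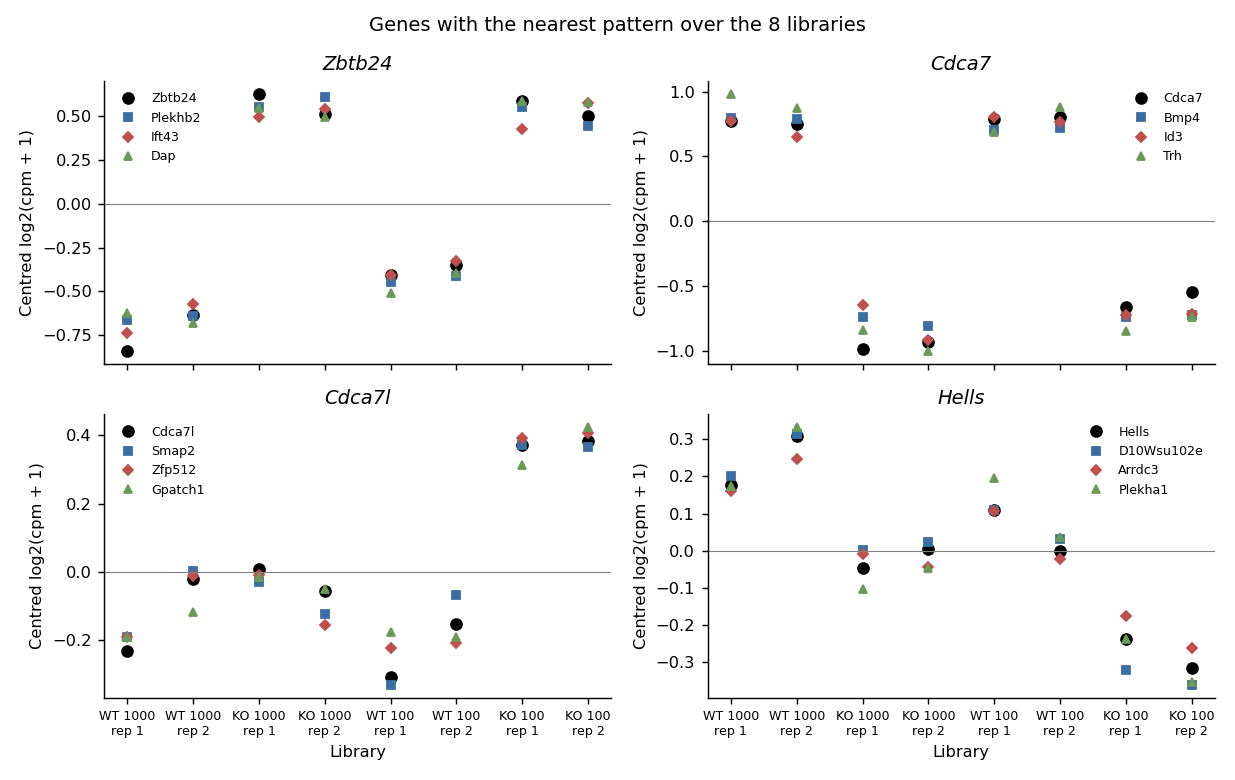
Centred log2(cpm + 1) (vertical axis) in the 8 libraries (horizontal axis) for each of the 4 genes (black circles) and its 3 nearest genes. Genes near *Cdca7* were low in all KO libraries, those near *Zbtb24* were high in all KO libraries, and those near *Cdca7l* were highest in the KO libraries of 100 cells.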

How the data were processed

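RNA-Seq counts of 8 mESC libraries were analysed. Per the submitters' processing notes and the methods, the authors removed rRNA reads with Bowtie2 2.1.0, mapped paired reads of 76 bases to mm10 with TopHat2 2.0.10 and deposited raw fragment counts per GENCODE M4 gene from HTSeq 0.6.1 in union mode. Counting ignored strand and discarded fragments of several genes or positions. Removal of PCR duplicates was not given in the sources used here. Groups and replicate numbers came from the labels. Of 43309 identifiers, 42425 (97.96%) matched GENCODE M21 (GRCm38), the source of symbols, positions and lengths.

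Genes that reached 10 counts in any of the 8 libraries were tested with the two-sided quasi-likelihood F test of edgeR 4.0.16 (R 4.3.3) after TMM scaling, with Benjamini-Hochberg adjustment over all genes tested and a threshold of 0.05. The code was tested on simulated data. KO was compared with WT on the 4 libraries of each input, inputs on the 4 libraries of each genotype, and the interaction on all 8. With 2 libraries a group, the tests rest on spread shared across genes. Levels are cpm of TMM-adjusted totals, and marker sums are cpm of plain totals. Totals of 9666985 to 16686525 set the precision. Replicates differed beyond counting noise in each group, by far the most in WT at 100 cells (chi-square per gene 17.6, against 3.13, 3.28 and 1.99 for WT and KO at 1000 cells and KO at 100 cells).

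Named genes were the 4 genes, the 2 list genes highest and 2 lowest by mean log2 ratio over both inputs among those with a mean of at least 10 cpm, the 3 nearest patterns and the 3 neighbours on each side. Other genes in the text were picked with their values in view. The members and lists were chosen with earlier results of these data known. Alternatives were DESeq2 1.42.0 and its size factors, library size alone, limma-voom 3.58.1, the edgeR exact test, 2 other filters, 1 fit of 8 libraries, a replicate block, thinning to the smallest total, and each library left out.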

Additional observations from a re-analysis of the deposited data

Results flagged for a closer look

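The KO to WT ratio differed between inputs past the threshold for 4 of the 24 genes named from the lists and for 0 of *Zbtb24*, *Cdca7*, *Cdca7l* and *Hells* (edgeR quasi-likelihood interaction with Benjamini-Hochberg correction, where 3 of these 4 had an unadjusted p under 0.05). The difference of log2 ratios, 100 cells minus 1000 cells, was 0.87 for *Dnmt3b* (SE 0.129, adjusted p = 0.00114), 0.70 for *Tfdp1* (SE 0.122, adjusted p = 0.00286) and 0.92 for *Rb1* (SE 0.239, adjusted p = 0.0194). For *Cdca3* it was −0.38 (SE 0.117, adjusted p = 0.0393). The 4 genes are a share of the 24 close to the 16.3% called over all genes tested. The interaction uses the KO libraries of 100 cells, in which neuronal and glial markers summed to 372.9 to 382.8 cpm against 40.1 to 48.0 cpm elsewhere, and their part in these values was not tested.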

How the results depend on the processing

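Groups held 2 libraries each, and thinning to the smallest total left *Hells* at −0.27 and −0.39 at 1000 and 100 cells, called at both. The calls of *Zbtb24* and *Cdca7* in KO against WT, and of *Cdca7*, *Cdca7l* and *Hells* between inputs in KO, kept their direction and their side of the threshold under each of 14 alternatives (adjusted p up to 0.0325), and so did *Hells* at 1000 cells (adjusted p 1.86e-06 to 0.0311). *Hells* at 100 cells was no longer called with every gene of at least 1 count (log2 ratio −0.35) and had −0.42 to −0.31 with each library left out (adjusted p up to 0.427). *Cdca7l* at 100 cells had 0.51 to 0.67 (adjusted p up to 0.162) and at 1000 cells −0.0052 to 0.22, the negative value being without WT replicate 1. The interaction passed with at least 10 counts in every library (*Cdca7* 0.36, *Cdca7l* 0.55) or library size alone (*Cdca7l* 0.55), and with each library left out it was −0.52 to −0.30 for *Zbtb24*, 0.27 to 0.39 for *Cdca7* and 0.41 to 0.63 for *Cdca7l*. Between inputs in WT, *Cdca7* was −0.0041 with library size alone, *Cdca7l* −0.23 to 0.0043, the positive value being without WT 1000 replicate 2, and *Hells* −0.28 to −0.12, called without WT 100 replicate 1 (adjusted p = 0.000477). In KO, *Zbtb24* was −0.082 to 0.039, above 0 without KO 1000 replicate 1 (0.039) or KO 100 replicate 2 (0.022). The cause of these shifts was not tested. The genes called at 100 cells, 5756 in all, were 2066 to 9551 with each library left out, and the 2745 of the interaction were 727 to 5633. The 139 called between inputs in WT were 79 with library size alone, 212 with DESeq2, 434 with the exact test, 463 with every gene of at least 1 count, 676 in 1 fit of all 8 libraries, 285 with the replicate block, 12 after thinning and 6 to 2631 with each library left out, and the 8753 in KO were 5641 with DESeq2. Replicate numbers were shared by KO and WT but not stated to mark a common clone or day, and deviations of same-numbered libraries correlated across genes at 0.157 (1000 cells) and 0.172 (100 cells). The replicate block left the 4 genes on the same side of the threshold in all 5 comparisons (for *Cdca7*, −1.74 and −1.46). List counts stayed within 1.5 times in 144 of 168 recomputations, and most of the exceptions were at 100 cells with 1 library left out (S phase genes 12 to 2 and 1, SNF2 ATPases 15 to 3 and 3, ZBTB proteins 16 to 7 and 3 without KO replicate 1 or 2).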
